A study of Mus musculus with 6 samples.

Results

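CDK6 peaks were examined at 9 genes that encode the pre-B cell receptor, its signalling chain and the enzymes of V(D)J recombination: Igll1, Vpreb1, Vpreb2, Cd79a, Cd79b, Blnk, Rag1, Rag2 and Dntt. They were chosen by name and are 9 of the 21992 protein-coding genes of the GENCODE vM21 annotation of mm10. The measurement was ChIP-seq against an HA tag, which enriches DNA crosslinked to the tagged protein. The cells were mouse lymphoid lines labelled as pre/pro-B cells, made by transducing bone marrow of Cdk6-/- C57BL/6 mice with the pMSCV-BCR-ABLp185-IRES-GFP retrovirus, so all of them carry the BCR::ABL1 oncogene and lack endogenous CDK6. An HA-tagged form of CDK6, either CDK6-WT or the kinase-inactive mutant CDK6-K43M, was put back from a pMSCV-IRES-GFP vector, at levels above the normal amount. Each variant had 2 libraries, numbered 1 and 2, and the labels do not say whether a number marks a clone, a culture or a day. The age of the donor mice and the number of clones are not given in the sources used here. The question put to the 2 variants was whether CDK6 needs an active kinase to be found at the same DNA sites. The lists hold no expression values, so the labelled cell type was not checked against marker genes.

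The pre-B cell receptor is the checkpoint receptor of early B cell development. It pairs an immunoglobulin heavy chain with a surrogate light chain made of λ5, encoded by Igll1, and VpreB, encoded in the mouse by the copies Vpreb1 and Vpreb2. CD79a and CD79b carry the signal into the cell, and the adaptor BLNK links it to downstream enzymes. RAG1 and RAG2 together form the recombinase that cuts immunoglobulin gene segments, and terminal deoxynucleotidyl transferase, encoded by Dntt, adds nucleotides at the joints. These genes are known to be expressed during early B cell development, though not all of them at every stage.

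Each library came with its own list of peaks. CDK6-WT replicates 1 and 2 had 35189 and 34729 peaks, and CDK6-K43M replicates 1 and 2 had 39797 and 37304. The median peak summit held 20, 18, 23 and 15 reads in that order. A promoter was taken as the 2000 bp upstream of a transcript start and the first 200 bp after it, a locus as the gene with 20000 bp to each side, and a region as an interval of peaks that overlapped by at least 1 bp over the 4 lists. A region was called bound by both variants when at least 3 of the 4 lists held it, and unique to 1 variant when it was in that variant's 2 lists and in no other. Peak strength is given as the percentile of its −log10 q within its own list, where 100 is the strongest peak of the list.

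The DNA at or beside the peak summits is shown for the windows that held a searched motif, with the letters of the motifs in capitals. Windows just before the Rag2 start and at 1906 bp of Dntt were searched too, held none of the motifs and are not shown. The sequences are on the strand of the gene, 5′ to 3′, in mm10, and bases of annotated untranslated regions were left out. They cover chr16:16864011-16864211 (minus) upstream of Igll1, chr16:16869258-16869458 (minus) at the internal start of Vpreb1, chr16:17980214-17980414 (plus) upstream of Vpreb2, chr7:24897284-24897380 (plus) upstream of Cd79a, chr11:106314563-106314664 (minus) in the first exon of Cd79b and chr2:101649533-101649666 (minus) upstream of Rag1. The capitals mark ACCACA, the reverse complement of the RUNX motif TGTGGT, in Igll1, the E2A motif CAGGTG in Vpreb1, Vpreb2 and Cd79a, the EBF motif CCCNNGGG in Cd79b, and in Rag1 the NFY motif CCAAT on the other strand, the RUNX motif at 2 places and the Ikaros motif TGGGAA.
Igll1: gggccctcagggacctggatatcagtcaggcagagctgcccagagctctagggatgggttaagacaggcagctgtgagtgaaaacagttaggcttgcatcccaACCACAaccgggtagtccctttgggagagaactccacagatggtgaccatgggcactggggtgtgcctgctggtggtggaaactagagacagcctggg
Vpreb1: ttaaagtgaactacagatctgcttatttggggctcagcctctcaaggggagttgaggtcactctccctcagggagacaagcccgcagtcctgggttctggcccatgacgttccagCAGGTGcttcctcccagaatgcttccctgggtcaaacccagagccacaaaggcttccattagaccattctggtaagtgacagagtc
Vpreb2: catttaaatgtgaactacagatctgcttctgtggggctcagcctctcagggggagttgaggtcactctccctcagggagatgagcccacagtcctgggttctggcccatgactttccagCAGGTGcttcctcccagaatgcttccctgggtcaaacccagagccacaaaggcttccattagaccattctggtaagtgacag
Cd79a: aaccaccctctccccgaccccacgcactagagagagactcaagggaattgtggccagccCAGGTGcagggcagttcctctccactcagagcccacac
Cd79b: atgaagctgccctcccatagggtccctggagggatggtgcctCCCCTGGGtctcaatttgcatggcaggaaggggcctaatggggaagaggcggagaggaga
Rag1: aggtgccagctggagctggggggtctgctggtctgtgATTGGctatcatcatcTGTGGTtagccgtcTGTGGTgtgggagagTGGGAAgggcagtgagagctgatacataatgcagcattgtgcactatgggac

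CDK6 peaks were present at the promoters of most of these genes in cells with either variant. A promoter region bound by both variants was found at 7 of the 9 genes, against 41.3% of all protein-coding genes, and at each of these 7 the region was in all 4 lists, against 33.3%. The exceptions were Rag1 and Dntt, whose promoter regions were held by both replicate 2 lists and by neither replicate 1 list. Of all protein-coding genes, 1.3% had that pattern. None of the 9 genes had a promoter region unique to a variant, a class that 0.932% of all genes had. Of the 8774 genes with an observed to expected CpG ratio under 0.4 in the 500 bp to each side of the start, 13.2% had a promoter region bound by both variants. Of the 9 genes, 8 had such a low ratio, from 0.117 at Igll1 to 0.331 at Cd79a, and 6 of these 8 had a promoter region bound by both. The exception in CpG content was Vpreb1 at 0.718, whose first start lies in the start region of the neighbouring gene Top3b. The median over all genes was 0.552.

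**Figure D1:**
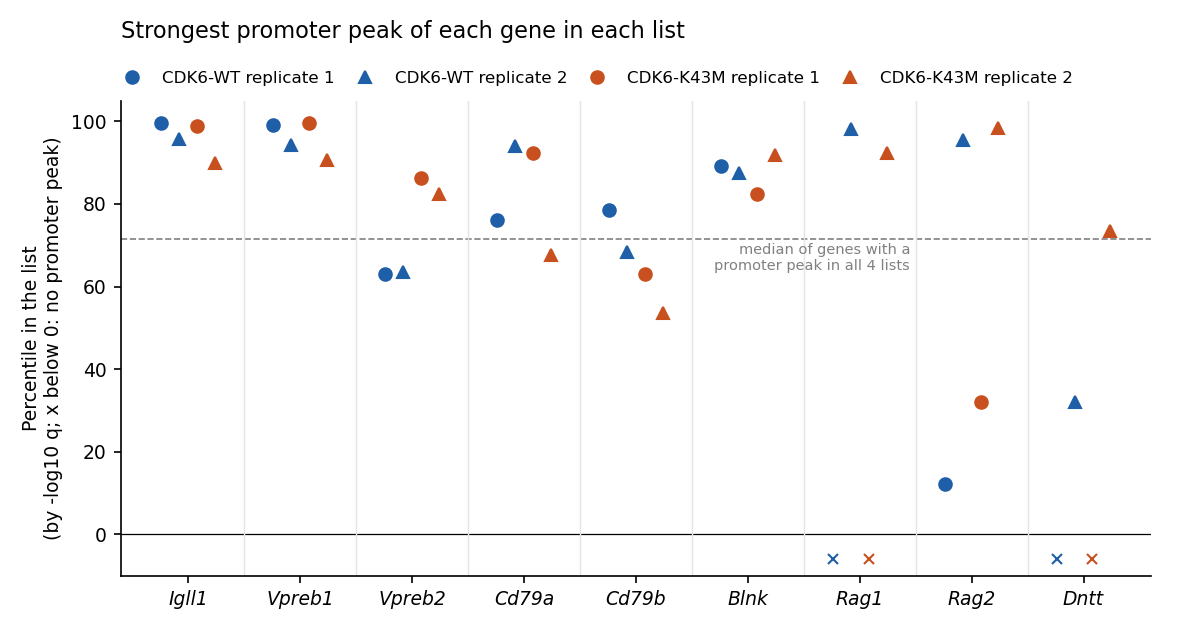
The vertical axis gives the percentile of the strongest promoter peak within each list, ranked by −log10 q, for the 9 genes, with circles for replicate 1, triangles for replicate 2, blue for CDK6-WT and orange for CDK6-K43M. Crosses under 0 mark lists without a promoter peak, which are the replicate 1 lists at Rag1 and Dntt, and the dashed line is the median of 71.5 over genes with a promoter peak in all 4 lists. Igll1 and Vpreb1 were at or above the percentile of 90.0 in every list, and Rag2 was high in the replicate 2 lists alone.

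Igll1, which encodes λ5 (ENSMUSG00000075370.12, chr16:16860671-16863985, minus strand), had the strongest promoter peaks of the 9 genes by mean percentile. Its strongest promoter peak was at the percentile of 99.7 and 95.8 in CDK6-WT replicates 1 and 2, and 99.0 and 90.0 in CDK6-K43M replicates 1 and 2. These peaks had 70, 37, 73 and 26 reads at the summit in the same order, with summits −126, −145, −142 and −178 bp from the start. All 4 summits thus lay just before the first exon, within the region chr16:16863586-16864609. The mean percentile was 97.7 ± 2.70 (SD, n = 2) with CDK6-WT and 94.5 ± 6.33 (SD, n = 2) with CDK6-K43M, the groups overlapped, and the difference of −3.25 gave an exact two-sided permutation p of 0.667. With 2 libraries against 2, no p below 0.333 was possible. Upstream of Igll1, regions at −1497 and −2196 bp were also in all 4 lists, with mean percentiles of 71.1 and 37.5. No peak of any list lay in the body of Igll1 outside its promoter.

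Vpreb1 and Vpreb2 encode the VpreB chain of the surrogate light chain and are near-identical copies. The sequences of the genes and their flanks aligned over 1425 bases with 96.6% identity and 46 mismatches, and the printed windows aligned over 198 bases with 7 mismatches. The authors removed reads that map to several places, so reads from stretches that the copies share in full are absent. Peak strength is thus uncertain within the 1425-base alignment, chr16:16868061-16869484 at Vpreb1 and chr16:17980191-17981613 at Vpreb2. The alignment reaches into the region at 1485 bp of Vpreb1 and the region next to the start of Vpreb2. The regions at the first start of Vpreb1 and at −1015 bp of Vpreb2 lie outside it. Vpreb1 (ENSMUSG00000059305.12, chr16:16868403-16870843, minus strand) lies 4417 bp from Igll1 and 1109584 bp from Vpreb2 (ENSMUSG00000059280.4, chr16:17980428-17981273, plus strand).

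At the first annotated start of Vpreb1, which is shared with Top3b, a DNA topoisomerase gene on the other strand, the strongest peak was at the percentile of 99.1 and 94.3 with CDK6-WT and 99.5 and 90.7 with CDK6-K43M. Its 59, 38, 78 and 29 reads placed it beside Igll1, and the peak cannot be assigned to one of the 2 genes from its position. A further region of Vpreb1 at 1485 bp, chr16:16869003-16869638, lay at the start that RefSeq gives for this gene. It also overlapped a promoter window of Top3b. This region was at 94.1 and 56.1 with CDK6-WT and at 84.7 and 87.0 with CDK6-K43M. The value of CDK6-WT replicate 2 stood apart from the other 3 lists there, and the groups overlapped.

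Vpreb2 had its strongest promoter peak at 63.1 and 63.4 with CDK6-WT and at 86.2 and 82.3 with CDK6-K43M. Both CDK6-K43M lists were above both CDK6-WT lists. The difference of 21.0 was larger than the SD within either variant, 0.235 and 2.75 (n = 2 each), and its exact permutation p was 0.333, the smallest possible. Of the 7303 protein-coding genes with a promoter peak in all 4 lists, 6.78% had both CDK6-K43M lists above both CDK6-WT lists, and Vpreb2 was 1 of the 7 genes studied here with that order. The strongest peak was not the same one in every list: the summit was at −1036 bp in CDK6-WT replicate 1 and at −1002 bp in CDK6-K43M replicate 2, but at −108 and −114 bp in the remaining lists. Within the region next to the start, chr16:17979879-17980671, the percentiles were 62.8, 63.4, 86.2 and 64.0, so that CDK6-K43M replicate 1 alone was high.

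CD79a and CD79b form the signalling heterodimer of the pre-B cell and B cell receptors. Cd79a (ENSMUSG00000003379.7, chr7:24897381-24902197, plus strand) had its strongest promoter peak at the percentile of 76.1 and 94.0 with CDK6-WT and 92.4 and 67.7 with CDK6-K43M. It held 34, 34, 62 and 22 reads, with summits between −87 and 33 bp of the start. The groups overlapped, and the direction of the difference was not the same within the replicate numbers: 16.2 in replicate 1 and −26.3 in replicate 2 (exact permutation p = 0.667 for the 4 lists). A region over an exon of Cd79a at 1792 bp was in all 4 lists with a mean percentile of 47.3. The locus of Cd79a also held the strong promoter region of Arhgef1 at 6911 bp, at 99.6, 94.0, 99.7 and 78.9, and that of the ribosomal protein gene Rps19 at −12898 bp.

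Cd79b (ENSMUSG00000040592.11, chr11:106311341-106314762, minus strand) was the 1 gene of the 7 at which both CDK6-K43M lists were below both CDK6-WT lists, an order that 3.61% of the 7303 genes had. Its strongest promoter peak was at 78.6 and 68.4 with CDK6-WT and at 63.0 and 53.6 with CDK6-K43M. The difference was −15.2, with −15.6 within replicate 1 and −14.8 within replicate 2, against an SD of 7.24 for CDK6-WT and 6.63 for CDK6-K43M (exact permutation p = 0.333, n = 2 each). Reads at the summit were 43 in both replicate 1 libraries, and 21 and 16 in replicate 2. The background that the peak caller set there was 5.16 reads in CDK6-WT replicate 1 and 7.39 in CDK6-K43M replicate 1, against 2.15 and 2.11 in the replicate 2 libraries. These reads are not scaled for depth, and the peak caller had scaled the replicate 1 libraries by factors of 0.970 and 0.812, so they do not compare the libraries directly. The fold enrichment was 7.12 and 6.82 with CDK6-WT and 5.13 and 5.46 with CDK6-K43M. Which of the 2 input libraries served which list is not given in the sources used here, so the control behind these backgrounds and folds is not known, and the part of the background in the difference was not tested. Downstream of Cd79b, regions at 4601, 6427 and 8809 bp from its start were in all 4 lists with mean percentiles of 84.6, 90.9 and 84.8, above the 65.9 of the promoter region.

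Blnk, the gene of the adaptor BLNK (ENSMUSG00000061132.13, chr19:40928927-40994535, minus strand), had promoter peaks in the 4 lists. Its strongest promoter peak was at 89.1 and 87.6 with CDK6-WT and at 82.3 and 91.8 with CDK6-K43M, with 38, 31, 40 and 35 reads. The groups overlapped and the difference was −1.28 (exact permutation p = 1.0). The strongest peak was not in the same region in every list: its summit was at 320, 335 and 278 bp in the first 3 lists but at −1225 bp in CDK6-K43M replicate 2, whose peak in the region at 320 bp was at 86.4. Besides the region at 320 bp, a second promoter region at −1853 bp was in all 4 lists with a mean percentile of 85.5. Inside the gene an intronic region at 31324 bp was at 95.1, 91.6, 90.3 and 60.6.

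Rag1 and Rag2 lie tail to tail with 5752 bp between them. Rag2 (ENSMUSG00000032864.4, chr2:101624718-101632529, plus strand) had a promoter region of 2375 bp, chr2:101623050-101625424, in all 4 lists. Its strongest peak was at the percentile of 12.2 in CDK6-WT replicate 1 and 32.1 in CDK6-K43M replicate 1, but at 95.5 and 98.4 in the replicate 2 lists. The summit held 13 and 18 reads in the replicate 1 libraries and 40 and 48 in the replicate 2 libraries, whereas the local background was 2.06 and 2.46 against 2.17 and 1.98 reads. Both replicate 2 lists thus lay far above both replicate 1 lists, and the variants overlapped (difference 11.4, exact permutation p = 0.667).

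Rag1 (ENSMUSG00000061311.6, chr2:101638282-101649501, minus strand) had no promoter peak in either replicate 1 list. In the replicate 2 lists the peak at its start, with summits at −65 and −93 bp, was at 98.3 with CDK6-WT and 92.3 with CDK6-K43M. These peaks held 62 and 40 reads, at 11.6-fold and 8.26-fold enrichment over the local background. The region, chr2:101648037-101651362, was 3326 bp wide and ranked 121 of the 6263 regions found in the replicate 2 lists only, by mean percentile. B230118H07Rik shares this start region with Rag1, so the peak cannot be assigned to one of them from its position. A region at −15990 bp of Rag1 was in all 4 lists at a mean percentile of 21.5.

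Dntt (ENSMUSG00000025014.13, chr19:41029275-41059525, plus strand) had no peak in any list with a summit between −1966 and 847 bp of its start. Its promoter region was at the far edge of the window, with summits at −1966 and −2011 bp, and held 15 reads in CDK6-WT replicate 2 and 19 in CDK6-K43M replicate 2, at percentiles of 32.0 and 73.4. Inside the gene, regions at 1906, 8991 and 10067 bp were in all 4 lists. The intronic region at 1906 bp, chr19:41030907-41031385, was at 88.7 and 93.3 with CDK6-WT and 67.1 and 93.5 with CDK6-K43M. The exonic region at 10067 bp was the most even, between 81.4 and 84.8 in the 4 lists.

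**Figure D2:**
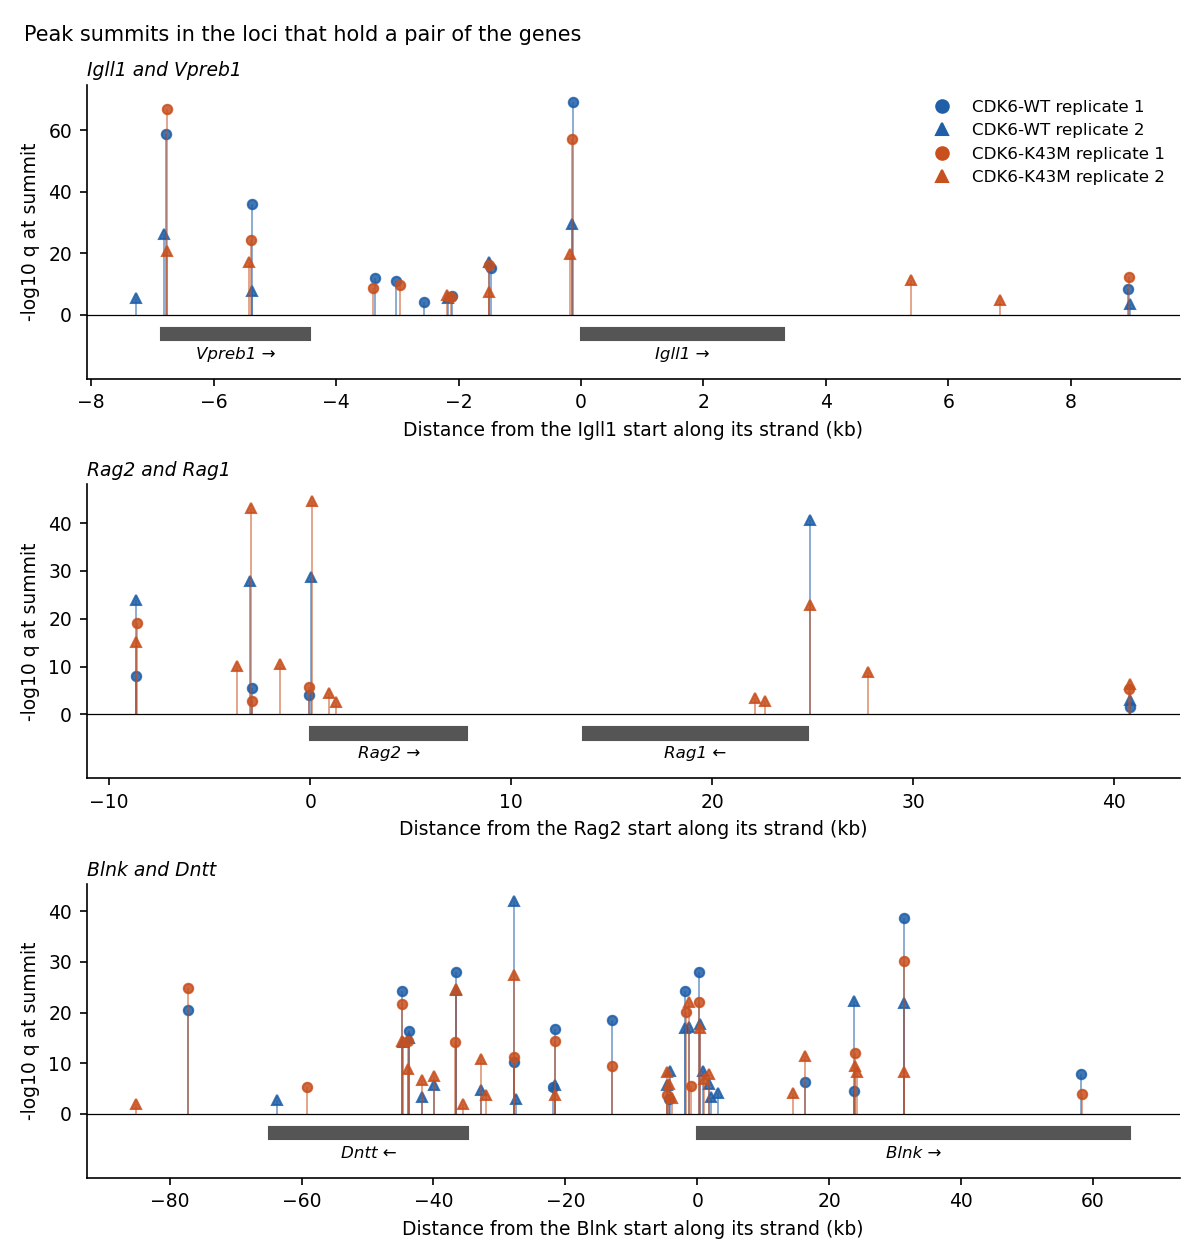
Each panel plots the −log10 q of every peak summit, on the vertical axis, against the distance in kb from the start of the first named gene along its strand, with grey boxes for the genes and arrows for their direction. Circles are replicate 1, triangles replicate 2, blue CDK6-WT and orange CDK6-K43M. The highest summits of the Igll1 and Vpreb1 panel are circles, and those of the Rag2 and Rag1 panel are triangles. Heights do not compare directly between lists. The median −log10 q of a list was 9.76 and 9.02 in replicate 1 and 6.82 and 6.68 in replicate 2, CDK6-WT first.

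The loci of the 9 genes were dense in regions bound by both variants. The number was 6 for Igll1, 6 for Vpreb1, 5 for Vpreb2, 7 for Cd79a, 8 for Cd79b, 5 for Blnk, 3 for Rag1, 3 for Rag2 and 5 for Dntt, with a median of 1 over all protein-coding genes. All 9 genes thus had at least 1, against 60.3% of all genes. Per 100 kb of locus the density ran from 4.73 at Blnk to 18.4 at Cd79b, and the median over all genes was 1.48. The windows of Igll1 with Vpreb1, Rag1 with Rag2, and Blnk with Dntt overlap, so 6 separate loci with 414641 bp remain and shared regions were counted once below.

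Between the variants, no region of these loci was unique to CDK6-WT and none was unique to CDK6-K43M. With peaks of a −log10 q of at least 5 alone, 2 regions were unique to CDK6-K43M, and without CDK6-K43M replicate 1, whose partner then stood for the variant, there were 15. A region of that 1 list alone counts as unique there. The shares of all regions under these settings were not computed, so the counts describe no trait of these loci. The loci held 88 of the 56748 regions. Of these, 40 were bound by both (45.5%, against 40.5% of all regions) and 33 were in all 4 lists (37.5%, against 28.9%). Over the whole lists only 204 regions were unique to CDK6-WT and 714 to CDK6-K43M, which are 0.359% and 1.26% of all regions. The regions bound by both comprised 18 at a promoter, 3 in an exon, 6 in an intron and 13 between genes, and some of the promoters belonged to neighbouring genes such as Top3b, Rps19 and Arhgef1. CDK6-WT replicates 1 and 2 had 58 and 51 peaks in the loci and CDK6-K43M replicates 1 and 2 had 66 and 63. The mean was 54.5 ± 4.95 (SD, n = 2) and 64.5 ± 2.12 (SD, n = 2), and the difference of 10 peaks had an exact permutation p of 0.333. Per 10000 peaks of the list the counts were 16.5, 14.7, 16.6 and 16.9, a difference of 1.15 with both CDK6-K43M lists still above both CDK6-WT lists (exact permutation p = 0.333).

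**Figure D3:**
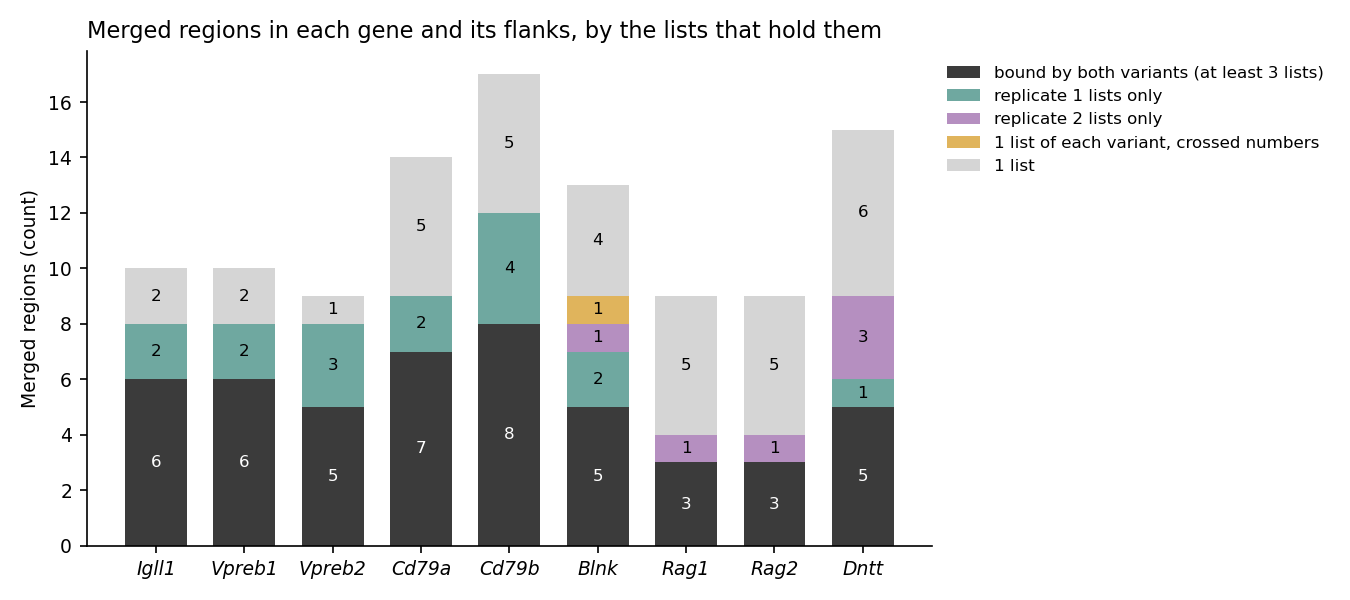
Bars count the merged regions in each gene and its 20000 bp flanks, split by the lists that hold them, with regions of overlapping windows shown under both genes. Regions bound by both variants range from 3 at Rag1 and Rag2 to 8 at Cd79b, and no bar has a part unique to a variant.

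The replicate number separated the lists more than the variant did at several of these regions. In the loci, 14 regions were in the replicate 1 lists only and 5 in the replicate 2 lists only, which are 15.9% and 5.68% of the 88, against 13.0% and 11.0% of all regions. The former included a region at 4214 bp of Vpreb2, chr16:17984166-17985025, at 96.7 with CDK6-WT and 96.2 with CDK6-K43M in replicate 1, which ranked 13 of 7357 regions of that kind. The latter were the promoter region of Rag1 together with regions at −2011, 5235 and 7000 bp of Dntt and 1845 bp of Blnk. At 69.3% of the 7303 genes with a promoter peak in all 4 lists, both replicate 1 lists were above both replicate 2 lists. Of the 7 such genes studied here, 2 had that order, Igll1 and Vpreb1. The opposite order was found at 10.1% of the 7303 genes and at 1 of the 7, Rag2.

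Among the 16381 regions in all 4 lists the median of the mean percentile in replicate 2 minus that in replicate 1 was −5.63, and its 5th and 95th percentiles were −51.1 and 49.8. The promoter region of Rag2 was at 74.8, above 99.5% of these regions, and the region at −2941 bp of Rag2, at a start of B230118H07Rik, was at 81.5, above 99.8%. That second region was at 23.3 and 7.02 in the replicate 1 lists and 95.1 and 98.2 in the replicate 2 lists. The region at −8641 bp of Rag2 was at 28.9. In the Blnk and Dntt loci the difference was 52.6 at −4159 bp of Blnk, 40.9 at −6909 bp of Dntt and −39.5 at −13137 bp of Dntt, so both signs were present. With 2 libraries a number, the exact permutation p of the Rag2 promoter difference was 0.333, the smallest possible. Regions in 1 list of each variant with crossed numbers were 1.14% of those in the loci and 1.32% of all regions. The labels do not name what the number marks, and what same-numbered libraries share was not tested. At any 1 region, such as the Rag2 promoter, their difference cannot be told apart from chance differences between libraries.

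**Figure D4:**
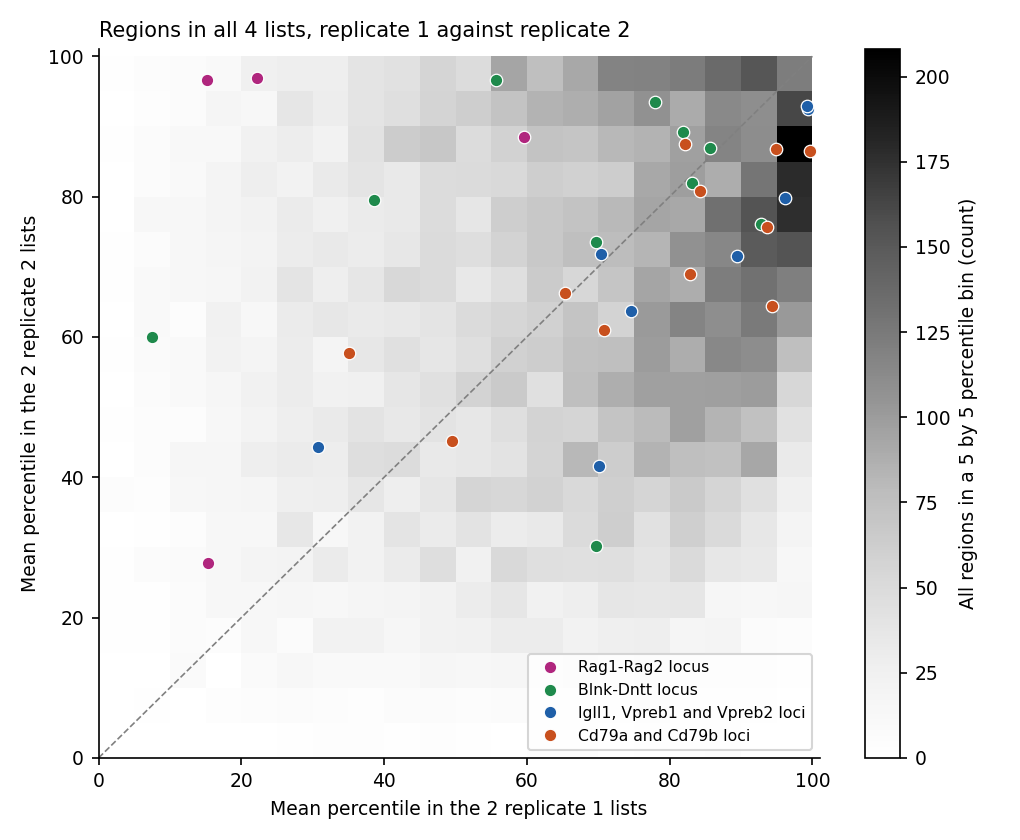
The horizontal axis is the mean percentile of a region in the 2 replicate 1 lists and the vertical axis that in the 2 replicate 2 lists, with grey squares for the count of all 16381 regions in all 4 lists and coloured points for regions of the studied loci. On the dashed line both means are equal. The promoter region of Rag2 and the region at −2941 bp lie in the upper left corner, 74.8 and 81.5 percentile points above the line.

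Searched motifs of B cell factors were found at some of the regions and not at others. The E2A motif CAGGTG was within 100 bp of the summit on either strand at 11 of the 40 regions bound by both (27.5%), against 15.5% of all 22975 such regions with sequence. By place, it was at 7 of the 18 promoter regions, against 12.4% of all promoter regions, and at 4 of the other 22, against 18.4%. The promoter regions include those of neighbouring genes, and the copied site of Vpreb1 and Vpreb2 was counted at both genes. E2A is a factor required for B cell specification. The RUNX motif TGTGGT was at 10 (25.0%, against 20.7%), CCAAT of NFY at 8 (20.0%, against 19.7%), and the EBF motif CCCNNGGG at 3 (7.5%, against 17.1%). The Ikaros motif TGGGAA, the FOXO motif GTAAACA, the ETS motif CCGGAAGT and the STAT motif TTCNNNGAA were at 2 regions each (5.0%), against 15.7%, 2.45%, 3.86% and 7.59%. The PU.1 motif GAGGAAGT, the SP1 motif GGGGCGGGG and the NRF-1 motif GCATGCGC were at 0 of the 40, against 6.35%, 6.02% and 2.53%. In the printed windows, CAGGTG began 19 bp after the summit at Vpreb2 and 15 bp after it at Vpreb1, at the same place of the copied sequence, and at −41 bp of the summit at Cd79a. A match describes the letters only.

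The wider pathway was described with a list of 41 other genes of pre-B cell receptor signalling and of V(D)J recombination and end joining. A promoter region bound by both variants was found at 36 of the 41 (87.8%, against the 41.3% of all protein-coding genes) and in all 4 lists at 31. Of the kinases and coreceptors, 9 of 9 had such a region, among them Syk, the kinase that CD79a and CD79b recruit, at percentiles of 25.3 and 95.3 with CDK6-WT and 70.2 and 96.4 with CDK6-K43M. Of the adaptors and effectors 14 of 17 had one, and Lcp2 and Lat2 were among those without. Of the genes of V(D)J recombination and end joining 12 of 13 had one. The exception was Hmgb2. Its promoter had peaks in both replicate 1 lists, at 74.4 with CDK6-WT and 92.8 with CDK6-K43M, and in neither replicate 2 list. Of the receptor components and their relatives Vpreb3 had one. The heavy chain gene Ighm had none. Ighm is annotated as a constant-region gene, so its window was not taken at the start of a variable segment. It is not one of the protein-coding genes behind the 41.3%. Only Grb2, an adaptor gene, had a promoter region unique to a variant, beside another that was in all 4 lists.

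The highest mean percentiles on this list were 98.8 for Hmgb1, whose product bends DNA for the recombinase, 96.9 for the lipid phosphatase gene Inpp5d, 95.1 for Xrcc6, which encodes Ku70, 94.0 for the kinase subunit gene Pik3cd and 91.8 for the polymerase gene Polm. Igll1 and Vpreb1, at 96.1 and 95.9, were within that range. The genes whose 4 promoter percentiles were nearest to those of Igll1 were Calm3, Dus1l and Ccar2, at Euclidean distances of 0.928, 1.22 and 1.67 percentile points over the 4 lists.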

How the data were processed

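HA ChIP-seq peak lists of 2 CDK6-WT and 2 CDK6-K43M libraries were analysed, grouped by variant and replicate number as titled, and the 2 input libraries were not analysed here. Cells were crosslinked with DSG and formaldehyde. According to the submitters' processing notes and the methods, the authors used FastQC 0.11.5, Trimmomatic 0.36, BWA 0.7.15 on mm10, bedtools and SAMtools 1.3.1 to drop blacklisted, multimapping and low-quality reads, and MACS2 2.1.0 at default settings, for each library on its own. The deposited lists give a score, a fold enrichment over the local background as a ratio, a p-value and a q-value on the −log10 scale, and the summit offset. The lowest −log10 q of a list was 1.31 to 1.34. No read totals are given, so whole reads at each summit were solved from fold and −log10 p with one scaling factor per list. A match within 0.001 of the −log10 p was found for 100% of the peaks. These reads were used only as depth behind a peak, since counting error limits weak ones: the lowest summits held 7 to 9 reads.

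Genes and starts came from GENCODE vM21, and sequence from the RefSeq assembly of the same build, with chromosome lengths compared first. Regions were merged intervals, in place of the DiffBind overlap of the authors. Scripts used Python 3.11.15, pandas 2.3.3 and scipy 1.17.1, and blastn 2.17.0 for the Vpreb alignment, and were tested on simulated lists. The variants were compared by exact permutation, two-sided, with 6 possible assignments. P-values measure only the spread between these libraries, which may be technical. Named genes were the 9 genes, protein-coding neighbours at a described region, on the pathway list the genes without a shared promoter region, with a variant-unique one or with the 5 highest mean percentiles, and the 3 genes nearest to Igll1. Syk was named after its values were seen, and 1 gene that the rule names is not reported here. The genes, lists, motifs and tests were chosen with earlier results of these data known. The set of low-CpG genes and the replicate 2 minus replicate 1 differences were added after seeing the data.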

Additional observations from a re-analysis of the deposited data

How the results depend on the processing

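The 7 genes with a promoter region bound by both variants stayed within 1.5 times that count under all alternatives run except the 10000 strongest peaks per list, which left 4 (Igll1, Vpreb1, Cd79a and Blnk) against 12.8% of all protein-coding genes. With peaks of a −log10 q of at least 10 there were 6, against 17.1%. Leaving out a library and asking for 2 of the 3 remaining lists gave 7 to 9 genes. The 9 came without a replicate 1 library, where the rule admits Rag1 and Dntt because both replicate 2 lists hold them. The share of all protein-coding genes under this looser rule was not computed. On the pathway list the count of 36 moved to 18 at a −log10 q of at least 10 and to 14 with the 10000 strongest peaks, and to 36 to 39 without a library. The 40 regions bound by both moved to 24 and 17 under these thresholds, and ranged from 43 to 54 without a library. Regions unique to CDK6-K43M, 0 as deposited, were 2 at a −log10 q of at least 5, 1 with the 10000 strongest peaks and 1 with summits extended by 100 bp. When 1 library stood for its variant, 0 to 4 regions were unique to CDK6-WT and 2 to 15 to CDK6-K43M, with the 15 without CDK6-K43M replicate 1 and the 4 without CDK6-WT replicate 1. The shares of all regions under these alternatives were not computed. The 14 regions in the replicate 1 lists only became 6 at a −log10 q of at least 10, 3 with the 10000 strongest peaks and 8 with peaks within 500 bp merged. The 5 in the replicate 2 lists only became 3 at a −log10 q of at least 10 and 8 with 50000 bp to each side.

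The difference of 10 peaks in the loci was 0 with the 10000 strongest peaks per list and −0.5 at a −log10 q of at least 10, and ranged from 6.5 to 13.5 without a library. The labels do not say what same-numbered libraries share, so the number was not taken as a pairing. Their deviations from the variant means correlated at 0.676 over the 16381 regions in all 4 lists, and with the replicate block the difference stayed 10 (exact sign-flip p = 0.5, the smallest for 2 pairs). The percentile differences of Vpreb2 were 19.1 to 23.0 and those of Cd79b −20.3 to −10.1 without any 1 library. Their sign could not change, since the lists of the variants did not overlap at these genes, so this adds no support. The sign changed for Igll1 (−7.72 to 1.22), Vpreb1 (−6.04 to 2.76), Cd79a (−17.3 to 7.29), Blnk (−6.01 to 3.46) and Rag2 (−30.2 to 53.1). The rank among the 30000 strongest peaks could not be had for Rag2, which lacked such a peak in 1 list. Except where an alternative by its construction keeps fewer peaks or lists, the cause of a move was not tested.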
